A study of Mus musculus with 9 samples.

Results

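The Ifi200 cluster of chromosome 1 holds a family of neighbouring genes for interferon-inducible proteins that bind DNA. The 9 genes *Aim2*, *Ifi213*, *Ifi209*, *Ifi207*, *Ifi204*, *Mndal*, *Ifi211*, *Ifi203*, and *Ifi202b* of the cluster were chosen by symbol, by a rule that uses no measured value but with earlier results of these data known, and all 9 were among the 31053 genes counted. They were examined in single cell transcriptomes of marrow from the femurs of 9 female mice aged 9 to 10 weeks, with 1 library per mouse. The strains were NZB and NZW, the inbred New Zealand Black and White mice, and NZBWF1, the F1 progeny of an NZW female and an NZB male, with 3 mice each. NZBWF1 females develop a lupus-like syndrome with age, which neither parent strain does to a like degree. None of the mice carried a transgene or received a treatment that the labels name. The parents are inbred and differ across the genome, so an effect of the cluster itself and an effect of other loci cannot be told apart here. NZBWF1 mice carry a copy of the cluster from each parent, and reads were not assigned to alleles.

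Proteins of this family, also called PYHIN or HIN-200 proteins, join a pyrin domain, through which they assemble with partners, to a HIN domain, through which they bind double-stranded DNA. AIM2 is the sensor of cytosolic DNA that recruits the adaptor PYCARD and caspase-1 into an inflammasome. IFI204 is a DNA sensor upstream of STING and type I interferon. IFI202B lacks the pyrin domain, carries a pair of HIN domains, and can hold DNA away from AIM2. *Ifi202b* lies in the lupus susceptibility interval of NZB origin known as Nba2 and has long been studied as a candidate gene within it. MNDAL and IFI203 are nuclear members of the family. *Ifi207*, *Ifi209*, *Ifi211*, and *Ifi213* are less well described.

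Cells needed at least 1000 UMIs and 500 genes with at most 10% mitochondrial UMIs, and 39051 were kept, with 8106539 to 18663189 UMIs per mouse, and 34318 of them (87.9%) were placed in a cell class by markers. In each class the markers that had gated it were over 2-fold higher than in all other cells for all but at most 1 of them, which checks the class names and is no finding. Free RNA made up an estimated 1.60% to 8.33% of the UMIs of B-cell-precursor-like cells. By mouse it was 2.18, 1.60, and 3.55% in NZB, 3.44, 4.79, and 8.33% in NZBWF1, and 2.70, 3.58, and 7.97% in NZW. The strains overlapped, and NZB held the lowest value. Free RNA can thus add unequally to low levels of the strains. Where free RNA was subtracted, the share of a mouse was applied to all its classes. Of 38879 barcode sequences, 170 occurred in more than 1 library. UMIs were summed per class and mouse. Levels are given as UMIs of the gene per 1000000 UMIs of the class in a mouse (CPM), with the mice in the order of their labels, and ± is the SD over the mice of a strain. In 12 classes strains were compared by edgeR's quasi-likelihood test, and an adjusted p is the Benjamini-Hochberg value over all genes of the class, with 0.05 as the threshold. Stricter limits (2000 UMIs with 1000 genes, or 5% mitochondrial UMIs), clusters in place of gates, DESeq2, and leaving out each mouse were among the alternatives, and are named where they end a call that is given for a single member. A log2 fold change is followed by its SE. Samples were separate mice, and p-values measure the spread between these mice.

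In the mm10 assembly the members occupied chr1 in the order *Aim2* (ENSMUSG00000037860, chr1:173349547-173466040), *Ifi213* (ENSMUSG00000073491, chr1:173566280-173599348), *Ifi209* (ENSMUSG00000043263, chr1:173630859-173647928), *Ifi207* (ENSMUSG00000073490, chr1:173723424-173741831), *Ifi204* (ENSMUSG00000073489, chr1:173747293-173767069), *Mndal* (ENSMUSG00000090272, chr1:173857215-173880382), *Ifi211* (ENSMUSG00000026536, chr1:173896339-173913087), *Ifi203* (ENSMUSG00000039997, chr1:173920400-173942866), and *Ifi202b* (ENSMUSG00000026535, chr1:173962569-173982844). Reads were counted by the 3′ end of transcripts against this C57BL/6J assembly. Of all runs of 60 bases in the last 500 bases of the annotated transcripts, 72.3% of those of *Ifi211* also occurred in *Ifi205* or *Mndal*, 61.5% of those of *Ifi209* in *Ifi214*, 15.9% of those of *Ifi213* in *Ifi206* or *Ifi208*, and 11.9% of those of *Mndal* in *Ifi203*, its pseudogene *Ifi203-ps*, *Ifi205*, or *Ifi211*. The values of these 4 members are therefore uncertain, since the counting could have split or dropped their reads. In the GENCODE annotation, unlike in the RefSeq positions above, 37 exon bases of *Ifi203* lie in exons of *Mndal* on the same strand. For *Mndal* 155 bases lie in same-strand exons of *Gm38050* or *Ifi203*. For *Ifi207* the share was 1.15%, and for *Ifi202b*, *Ifi203*, *Ifi204*, and *Aim2* it was 0%. A base difference between a strain and the assembly can also lower a count, and was not tested.

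Promoters are shown because most of those found for the members share a short sequence before their starts. RefSeq promoters (GRCm38.p6, 250 bases before the start) were found for 8 of the 9 members, with no entry for *Ifi204*. The core of the interferon-stimulated response element, the sequence bound by interferon regulatory factors, was searched as GAAA, 2 bases of any kind, and GAAA, on both strands. It occurred in the promoters of 5 of the 8 members, of 16 of 39 interferon-stimulated genes outside the cluster (41%), and of 978 of all 32851 promoters (2.98%). The matches are in capitals, with 8 bases on each side.
Ifi203: gagctgggGAAATCGAAAgctatgaa
Mndal: gagctgggGAAATCGAAAgctatgaa
Ifi211: aagccaggGAAATTGAAAgctatgaa
Ifi207: tagccaggGAAATCGAAAattaagaa
Ifi213: tctctgagGAAATCGAAAgctatgaa
*Mndal* has 2 listed starts and its second is shown, and the promoter of the other also held a match. *Ifi203* also has 2 and its first is shown, and the promoter of the other held no match. These windows lie on the minus strand at chr1:173942510-173942535, chr1:173880206-173880231, chr1:173913066-173913091, chr1:173741833-173741858, and chr1:173599328-173599353, and the matches begin 35, 36, 37, 41, and 73 bases before the annotated starts. *Ifi209*, *Ifi202b*, and *Aim2* held no match in this window. A TATA box, searched as TATAAA on both strands, occurred in the promoters of *Ifi209* and *Ifi213* among the members and in 12.4% of all promoters. The stretch of *Ifi209* that aligned with the match of *Ifi214*, another gene of the cluster, lies on the plus strand at chr1:173630772-173630797, with the aligned bases in capitals.
Ifi209: tctctgagTAAATCGAAAgagatgca
A match is a description of the C57BL/6J sequence, and the NZB and NZW sequences were not read.

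The second listed promoter of *Mndal* (chr1:173880188-173880437, minus strand) and the first of *Ifi203* (chr1:173942493-173942742, minus strand) were identical at 233 of 239 aligned bases (97.5%), and are shown in full since the 2 genes differed in where the strains diverged, as described below for each. That of *Ifi202b* (chr1:173982845-173983094, minus strand) is shown beside them, as the member that was at 0 UMIs in NZW.
Mndal: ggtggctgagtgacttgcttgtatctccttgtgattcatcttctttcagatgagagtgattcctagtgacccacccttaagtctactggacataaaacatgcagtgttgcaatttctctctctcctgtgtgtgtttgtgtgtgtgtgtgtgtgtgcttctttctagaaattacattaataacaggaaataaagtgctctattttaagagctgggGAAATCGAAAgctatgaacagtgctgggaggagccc
Ifi203: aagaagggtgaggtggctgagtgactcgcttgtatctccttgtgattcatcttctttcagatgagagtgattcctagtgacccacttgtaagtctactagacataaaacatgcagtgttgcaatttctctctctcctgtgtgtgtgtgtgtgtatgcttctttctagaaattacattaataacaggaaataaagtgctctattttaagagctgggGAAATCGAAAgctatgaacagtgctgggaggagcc
Ifi202b: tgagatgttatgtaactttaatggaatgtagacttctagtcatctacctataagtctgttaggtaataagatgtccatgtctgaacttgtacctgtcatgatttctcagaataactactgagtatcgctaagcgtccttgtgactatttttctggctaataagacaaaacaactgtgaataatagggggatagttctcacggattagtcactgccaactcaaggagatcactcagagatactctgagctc
The other pairings of their listed promoters were identical at 76.4% of 182 (the first of both), 71.8% of 170 (the second of *Ifi203* and the first of *Mndal*), and 98.3% of 59 aligned bases (the second of both). *Ifi207* and *Ifi211* were identical at 87.8% of 246 aligned promoter bases, *Ifi209* and *Ifi214* at 95.2% of 249, and *Ifi213* and *Ifi208* at 99.1% of 235.

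The first question was how the parents differ. Of the 108 pairs of a member and a class, 47 had enough UMIs to be tested, spread over 10 classes. A pair that passed this filter through 1 strain alone had to differ, so the counts that follow describe those pairs and not all members. Between NZB and NZW, 29 of the 47 pairs were called, 10 higher and 19 lower in NZB, whereas 8.59% of all tests over all genes were called (4.24% higher and 4.34% lower). The median log2 fold change of the members was -0.39, and that of all genes was 0.00. With the limit of 2000 UMIs 16 of 31 pairs were called, and with that of 5% mitochondrial UMIs 15 of 30. *Ifi202b* was higher in NZB in all 6 classes where it was tested, *Mndal* was lower in NZB in all 10, 1 of which (neutrophil-like cells) had NZB above NZW once free RNA was subtracted, and *Aim2* was called in 0 of 6. Of the other 6 members, *Ifi213* was tested in 1 class alone, and the rest were called in some classes and not in others. The map of NZB over NZW shows both directions within a column for *Ifi204*.

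**Figure D1:**
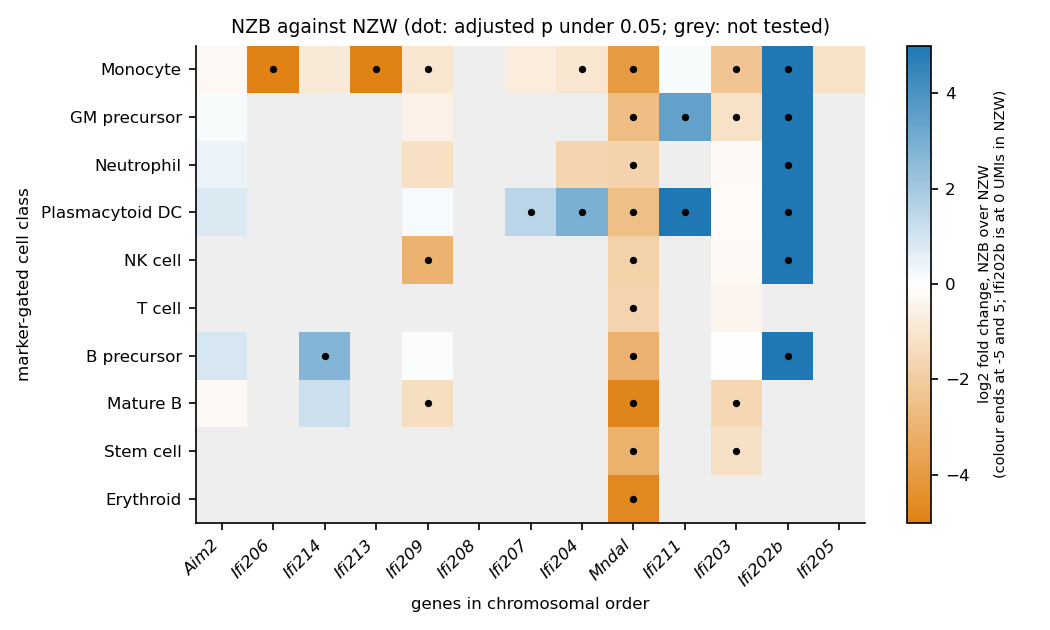
Fitted log2 fold change of NZB over NZW (colour scale from -5 to 5, blue higher in NZB and orange higher in NZW) for the genes of the cluster in chromosomal order (x axis) in 10 marker-gated cell classes (y axis). Dots mark an adjusted p under 0.05 and grey marks pairs with too few UMIs. *Mndal* is orange in all 10 classes, before any subtraction of free RNA, *Ifi202b* is blue in the 6 classes where it was tested, and *Ifi204* is orange in monocyte-like and blue in plasmacytoid-dendritic-cell-like cells.

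*Ifi202b* was at 0 UMIs in each of the 3 NZW mice in every class. In monocyte-like cells its level was 353, 445, and 423 CPM in the NZB mice and 172, 203, and 217 in the NZBWF1 mice. The mean was 407 ± 48.1 CPM in NZB and 197 ± 22.8 in NZBWF1, whereas 0 UMIs in NZW leaves room for at most 0.553 CPM. The 3 strains did not overlap. Bounds were computed from UMIs pooled over the mice of a strain, not from the means above. Against a floor of 3 UMIs over the NZW mice, NZB was at least 756-fold higher (edgeR adjusted p = 4.73e-22) and NZBWF1 at least 367-fold higher (edgeR adjusted p = 2.43e-19). NZBWF1 was lower than NZB (log2 fold change -1.06 ± 0.11, edgeR adjusted p = 1.17e-07).

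In natural killer (NK)-cell-like cells *Ifi202b* stood at 206, 232, and 174 CPM in NZB and 81.3, 124, and 126 in NZBWF1, and NZB was at least 18-fold above NZW (edgeR adjusted p = 2.72e-09). The difference of NZBWF1 from NZB there did not pass (log2 fold change -0.83 ± 0.31, edgeR adjusted p = 0.451). In granulocyte-monocyte-precursor-like cells it was 74.8, 77, and 87.8 CPM in NZB and 11.2, 38.2, and 30.3 in NZBWF1, at least 61.1-fold above NZW in NZB (edgeR adjusted p = 2.87e-16), and lower in NZBWF1 than in NZB (log2 fold change -1.32 ± 0.21, edgeR adjusted p = 4.23e-05). In plasmacytoid-dendritic-cell-like cells it was 58.8, 36.5, and 30.4 CPM in NZB and 12.6, 16.6, and 19.6 in NZBWF1, with NZB at least 11-fold above NZW (edgeR adjusted p = 5.01e-08). The NZB and NZBWF1 mice did not overlap in any of these 3 classes. In B-cell-precursor-like cells NZB stood at 24.6, 6.88, and 9.39 CPM and NZBWF1 at 0, 0.945, and 1.46, from 13 UMIs and 7 UMIs, respectively, with no overlap. The 6 UMIs of NZB mouse 1 there came from 1 of its 109 cells. In neutrophil-like cells NZB stood at 2.04, 4.25, and 3.3 CPM and NZBWF1 at 3.73, 3.32, and 5.55, and these overlapped. In both classes NZB was above NZW, by at least 27.7-fold and 13.5-fold (edgeR adjusted p = 0.000196 and 0.000108).

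By its level in NZB the classes were ordered as monocyte-like (407 ± 48.1 CPM), NK-cell-like (204 ± 28.8), macrophage-like (101 ± 51.8), granulocyte-monocyte-precursor-like (79.9 ± 6.98), plasmacytoid-dendritic-cell-like (41.9 ± 15), B-cell-precursor-like (13.6 ± 9.59), stem-cell-like (10.6 ± 8.74), T-cell-like (6.46 ± 5.61), neutrophil-like (3.19 ± 1.11), and erythroid-like cells (1.62 ± 1.22). Macrophage-like and granulocyte-monocyte-precursor-like cells overlapped, as did each neighbouring pair from B-cell-precursor-like cells down. Mature-B-cell-like cells of NZB held 0 UMIs, which leaves room for 7.1 CPM. Free RNA can reach the lowest of these levels. After its subtraction the neutrophil-like mean was 2.3 CPM in NZB and 3.24 in NZBWF1. Plasma-cell-like cells, which could not be compared with NZW since 1 NZW mouse alone reached 10 of them, held 0, 2.89, and 13.9 CPM in the NZB mice, from 6 UMIs. Only 1 NZB mouse reached 10 conventional-dendritic-cell-like cells, and it stood at 640.0 CPM in them, above the monocyte-like level, from 19 UMIs. Those of 2 NZBWF1 mice stood at 114 and 109 CPM.

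A class sum cannot tell fewer expressing cells from less RNA per cell. The share of cells with a UMI, counted after each cell was thinned to 1000 UMIs, falls with the mean in either case at these depths and does not tell them apart either. In monocyte-like cells this share was 27.2, 35.8, and 31.2% in NZB and 14.2, 17.2, and 18.2% in NZBWF1, from 56.4, 67.1, and 58.9% and 35.8, 31.2, and 34.5% before thinning, at median depths of 3327, 2850, and 2712 and 2375, 1757, and 1917 UMIs. In NZW it was 0 of 538, 920, and 796 cells, which allows shares of up to 0.558, 0.326, and 0.377%, for counting error only. Erythroid-like cells, taken here as a class that should lack the gene, which was not tested, gave 0, 0, and 0.476% in NZB after thinning, and 0.971, 1.59, and 0.952% before it, at median depths of 10433, 6974, and 9979 UMIs. In NK-cell-like cells the thinned share was 18.3, 28.6, and 14.9% in NZB and 6.56, 8.33, and 11.4% in NZBWF1, and in granulocyte-monocyte-precursor-like cells 11.1, 7.47, and 5.88% and 0, 3.85, and 3.31%. The NZB and NZBWF1 mice did not overlap in these 3 classes.

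Some calls for *Ifi202b* rested on single mice or on 1 setting. That of NZBWF1 below NZB in B-cell-precursor-like cells (log2 fold change -3.55 ± 0.83, edgeR adjusted p = 0.0373) was lost with clusters in place of gates (adjusted p = 0.388), without NZB mouse 2 (adjusted p = 0.0722), NZB mouse 3 (adjusted p = 0.159), NZBWF1 mouse 1 (adjusted p = 0.0959), and NZBWF1 mouse 2 (adjusted p = 0.0551) at log2 fold changes between -3.87 and -2.42, and over all alternatives its adjusted p ran from 0.00284 to 0.388. The same comparison in plasmacytoid-dendritic-cell-like cells (log2 fold change -1.27 ± 0.33, edgeR adjusted p = 0.0151) was lost without NZB mouse 1 (adjusted p = 0.291) and NZBWF1 mouse 2 (adjusted p = 0.093) at log2 fold changes between -1.24 and -0.98, with an adjusted p range of 0.000547 to 0.291. In granulocyte-monocyte-precursor-like cells it was lost with the limit of 5% mitochondrial UMIs (adjusted p = 0.724) at a log2 fold change of -0.87, with an adjusted p range of 2.17e-12 to 0.724. All 6 calls of NZB above NZW were kept in every alternative in which they could be fitted. With NZW at 0 UMIs the gene passed the filter only through the other strains. The direction of these calls was thus fixed, and their being kept is no separate check.

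*Mndal* went the other way, and in monocyte-like cells it had the lowest level in NZB, the highest in NZW, and NZBWF1 between. It stood there at 8.67, 15.8, and 13.4 CPM in the NZB mice, 87.4, 112, and 117 in the NZBWF1 mice, and 202, 208, and 225 in the NZW mice. No 2 strains overlapped. NZB was lower than NZW (log2 fold change -3.96 ± 0.16, edgeR adjusted p = 3.01e-18), and NZBWF1 was lower than NZW (log2 fold change -1.0 ± 0.12, edgeR adjusted p = 7.39e-07) and higher than NZB (log2 fold change 2.97 ± 0.18, edgeR adjusted p = 2.87e-13). Among classes with more than 3 UMIs of the gene in NZB, the widest gap was in mature-B-cell-like cells, at 13, 11.4, and 11.1 CPM in NZB, 143, 177, and 247 in NZBWF1, and 382, 301, and 414 in NZW. There NZB was lower than NZW by a fitted 28.3-fold (log2 fold change -4.82 ± 0.38, edgeR adjusted p = 9.3e-15), from 5 UMIs in NZB.

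The means had the same order of strains in the 4 classes that follow. In plasmacytoid-dendritic-cell-like cells the mean level of *Mndal* was 40.3 ± 8.6 CPM in NZB, 132 ± 14 in NZBWF1, and 241 ± 35 in NZW (NZB against NZW, log2 fold change -2.53 ± 0.19, edgeR adjusted p = 4.04e-18). B-cell-precursor-like cells stood at 19 ± 4.83, 89.8 ± 10.9, and 149 ± 16.3 CPM in the same order of strains (log2 fold change -3.04 ± 0.25, edgeR adjusted p = 9.42e-12), and stem-cell-like cells at 12.7 ± 4.32, 57 ± 9.9, and 109.6 ± 29.7 (log2 fold change -3.08 ± 0.38, edgeR adjusted p = 1.8e-08). Granulocyte-monocyte-precursor-like cells were lower, at 4.0 ± 2.0, 18.6 ± 8.89, and 26 ± 6.92 CPM (log2 fold change -2.59 ± 0.40, edgeR adjusted p = 1.9e-06). The call in stem-cell-like cells was lost with the limit of 5% mitochondrial UMIs (adjusted p = 0.47) at a log2 fold change of -2.07, with an adjusted p range over all alternatives of 1.15e-11 to 0.47. In all of these classes no NZB mouse reached the lowest mouse of either other strain. In erythroid-like cells the NZB mice held 1 UMI in all, against 51 in NZW, a counted ratio of 34.6 (95% counting interval 5.94 to 1393). There the gene passed the filter only through the other strains, which fixed the direction of the call of NZB against NZW. With free RNA subtracted the erythroid-like means went from 0.126 to 0 CPM in NZB and from 5.69 to 1.67 in NZW. That of NZBWF1 went from 3.65 to 1.41, and the gene was then too low to test there. The share subtracted was estimated in B-cell-precursor-like cells, at a median depth of 1868.5 UMIs, against 9099 in erythroid-like cells. Whether this share holds in erythroid-like cells was not tested.

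The smaller differences of *Mndal* were in T-cell-like, NK-cell-like, and neutrophil-like cells. T-cell-like cells held 93, 19.5, and 40.3 CPM in NZB and 206, 143, and 205 in NZW (log2 fold change -1.69 ± 0.44, edgeR adjusted p = 0.0218), and the call was lost with DESeq2 (adjusted p = 0.236), without NZB mouse 2 (adjusted p = 0.125), NZB mouse 3 (adjusted p = 0.233), NZW mouse 1 (adjusted p = 0.0811), and NZW mouse 3 (adjusted p = 0.0845) at log2 fold changes between -1.74 and -1.43. NK-cell-like cells held 46.7, 82.7, and 50.8 CPM and 222, 71.8, and 283 (log2 fold change -1.80 ± 0.42, edgeR adjusted p = 0.0045), the parents overlapped, and the call was lost with DESeq2 (adjusted p = 0.104), without NZB mouse 3 (adjusted p = 0.0863), and NZW mouse 3 (adjusted p = 0.119) at log2 fold changes between -1.78 and -1.44. Neutrophil-like cells held 1.02, 0.849, and 1.65 and 2.31, 4.91, and 5.94 CPM (log2 fold change -1.72 ± 0.49, edgeR adjusted p = 0.0286), and the call was lost with the limit of 2000 UMIs (adjusted p = 0.107), without NZB mouse 1 (adjusted p = 0.0689), NZB mouse 2 (adjusted p = 0.129), NZW mouse 2 (adjusted p = 0.0863), and NZW mouse 3 (adjusted p = 0.139) at log2 fold changes between -1.70 and -1.46. After subtraction of free RNA the neutrophil-like means were 1.13 CPM in NZB and 0.462 in NZW, the other way round, and the pair was too low to be tested. Over all alternatives the adjusted p of these 3 calls ran from 5.55e-05 to 0.236, 8.84e-05 to 0.119, and 0.00282 to 0.139. The plot of *Ifi202b* and *Mndal* by class shows the opposed order of the strains side by side.

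**Figure D2:**
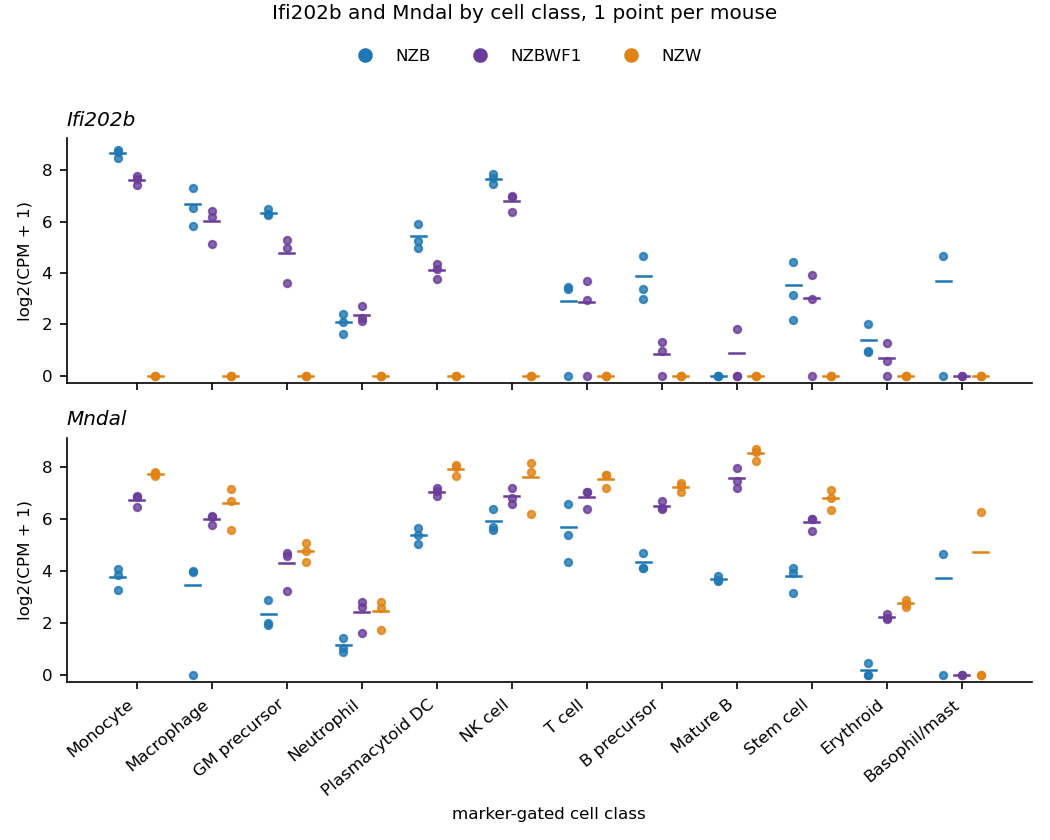
Level of *Ifi202b* (upper panel) and *Mndal* (lower panel) as log2(CPM + 1) on the y axis in 12 marker-gated cell classes on the x axis, with 1 point per mouse and a bar at the strain mean of CPM. *Ifi202b* is at 0 in all NZW mice, whereas for *Mndal* the NZB mice are the lowest and the NZW mice the highest in monocyte-like cells, with NZBWF1 between them for both genes.

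*Ifi203*, of which 1 of 2 listed promoters nearly matched 1 of those of *Mndal*, differed between the parents in some classes. In monocyte-like cells it stood at 57.8, 54.1, and 56.2 CPM in NZB, 137, 178, and 159.7 in NZBWF1, and 217, 302, and 301 in NZW. The strains did not overlap, NZB was lower than NZW (log2 fold change -2.29 ± 0.13, edgeR adjusted p = 7.52e-14), and NZBWF1 was higher than NZB (log2 fold change 1.5 ± 0.14, edgeR adjusted p = 1.32e-08) and lower than NZW (log2 fold change -0.79 ± 0.12, edgeR adjusted p = 8.52e-05). Mature-B-cell-like cells held 123, 114, and 116 CPM in NZB, 351, 201, and 271 in NZBWF1, and 449, 311, and 352 in NZW (log2 fold change -1.57 ± 0.23, edgeR adjusted p = 2.38e-06 for NZB against NZW). Stem-cell-like cells held 81.4, 68.5, and 73.3 CPM in NZB and 172, 199.7, and 144 in NZW (log2 fold change -1.19 ± 0.24, edgeR adjusted p = 0.000769). The parents did not overlap in either class, and the call in stem-cell-like cells was lost with clusters in place of gates (adjusted p = 0.197) and with the limit of 5% mitochondrial UMIs (adjusted p = 0.0876) at log2 fold changes between -1.54 and -0.5, with an adjusted p range over all alternatives of 0.000178 to 0.197. In granulocyte-monocyte-precursor-like cells the levels were 8.31, 9.47, and 10.2 and 16.4, 21.6, and 18.7 CPM (log2 fold change -1.15 ± 0.35, edgeR adjusted p = 0.0239), and this call was lost with DESeq2 (adjusted p = 0.156), with free RNA subtracted (adjusted p = 0.102), without NZB mouse 1 (adjusted p = 0.0545), NZB mouse 2 (adjusted p = 0.0816), NZW mouse 2 (adjusted p = 0.113), and NZW mouse 3 (adjusted p = 0.0713) at log2 fold changes between -1.18 and -1.05, with an adjusted p range over all alternatives of 2.89e-09 to 0.156.

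In B-cell-precursor-like cells, in contrast, *Ifi203* stood at 172, 172, and 117 CPM in NZB, 172, 136, and 150.5 in NZBWF1, and 152, 136, and 157 in NZW, and the strains overlapped (log2 fold change 0.03 ± 0.16, edgeR adjusted p = 0.971 for NZB against NZW). Plasmacytoid-dendritic-cell-like cells held 234, 278, and 264 CPM in NZB and 253, 250.1, and 393 in NZW (log2 fold change -0.15 ± 0.14, edgeR adjusted p = 0.634). NK-cell-like cells held 262, 265, and 218 and 243, 275, and 316 CPM (log2 fold change -0.20 ± 0.26, edgeR adjusted p = 0.887). None of these 3 differences passed the test, and neither did those in T-cell-like (-0.39 ± 0.30) or neutrophil-like cells (-0.17 ± 0.39). Within NZB the gene stood at 258 ± 22.5 CPM in plasmacytoid-dendritic-cell-like and 56.1 ± 1.87 in monocyte-like cells.

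*Ifi204*, the sensor upstream of STING, changed direction between classes. In monocyte-like cells it was 68.4, 71.7, and 63.8 CPM in NZB, 133, 117, and 132 in NZBWF1, and 141, 137, and 140.0 in NZW. NZB was lower than NZW (log2 fold change -1.01 ± 0.11, edgeR adjusted p = 8.09e-08) and lower than NZBWF1 (log2 fold change 0.85 ± 0.12, edgeR adjusted p = 9.25e-06 for NZBWF1 against NZB), and the NZB mice overlapped neither. Both were smaller and no longer passed when cells needed 2000 UMIs, at log2 fold changes of -0.41 (adjusted p = 0.0798) and 0.36 (adjusted p = 0.223), with adjusted p ranges over all alternatives of 5.91e-14 to 0.0798 and 7.36e-09 to 0.223. In plasmacytoid-dendritic-cell-like cells it was 31.8, 42.8, and 38.9 CPM in NZB, 12.6, 20.3, and 16.8 in NZBWF1, and 0, 10.6, and 3.89 in NZW, from 4 UMIs in NZW. There NZB was higher than NZW (log2 fold change 2.90 ± 0.54, edgeR adjusted p = 5.87e-05) with no overlap. NZBWF1 was lower than NZB (log2 fold change -1.14 ± 0.33, edgeR adjusted p = 0.0406), a call lost without NZB mouse 1 (adjusted p = 0.0537), NZB mouse 2 (adjusted p = 0.327), NZB mouse 3 (adjusted p = 0.121), NZW mouse 3 (adjusted p = 0.0511), NZBWF1 mouse 1 (adjusted p = 0.0999), NZBWF1 mouse 2 (adjusted p = 0.0939), and NZBWF1 mouse 3 (adjusted p = 0.177) at log2 fold changes between -1.28 and -1.02, with an adjusted p range over all alternatives of 0.0292 to 0.327.

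In neutrophil-like cells *Ifi204* was at a low level, 0.34, 0.637, and 0.825 CPM in NZB, 5.38, 5.92, and 5.31 in NZBWF1, and 1.62, 1.09, and 3.96 in NZW. Every NZBWF1 mouse was above every mouse of both parents, which occurred in 1 of the 47 pairs and in 1.69% of all pairs of a gene and a class. NZBWF1 was higher than NZB (log2 fold change 2.93 ± 0.5, edgeR adjusted p = 0.00207), and the differences of NZBWF1 from NZW (log2 fold change 1.28 ± 0.38, edgeR adjusted p = 0.159) and of NZB from NZW (log2 fold change -1.65 ± 0.58, edgeR adjusted p = 0.0802) did not pass. After subtraction of free RNA the means were 0.449 CPM in NZB, 5.11 in NZBWF1, and 1.46 in NZW.

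*Ifi207* went the same way as *Ifi204* in plasmacytoid-dendritic-cell-like cells, at 66.8, 62.9, and 42.2 CPM in NZB, 41.9, 24, and 35 in NZBWF1, and 20.1, 24.7, and 15.6 in NZW, with NZB higher than NZW and no overlap of the parents (log2 fold change 1.55 ± 0.35, edgeR adjusted p = 0.000911). In monocyte-like cells it was 42.4, 85.8, and 40.3 CPM in NZB and 91.7, 114, and 87.1 in NZW, a difference of the opposite sign that did not pass (log2 fold change -0.68 ± 0.27, edgeR adjusted p = 0.113). NZB mouse 2 stood apart from the other NZB mice there.

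*Ifi211* was nearly absent from NZW in plasmacytoid-dendritic-cell-like cells and not in monocyte-like cells. In the former it stood at 93.8, 142, and 115 CPM in NZB and 75.4, 49.9, and 72.8 in NZBWF1, whereas the NZW mice held 1 UMI in all, or 4.01, 0, and 0 CPM. The counted ratio of NZB to NZW was 94 (95% counting interval 16.7 to 3728), with an edgeR adjusted p of 2.09e-15. With NZW at 1 UMI the gene passed the filter there only through the other strains, which fixed the direction of this call. In monocyte-like cells it was 54, 60.3, and 73.8 CPM in NZB, 74.9, 76.4, and 71.8 in NZBWF1, and 50.2, 68, and 53 in NZW. There the parents overlapped (log2 fold change 0.13 ± 0.14, edgeR adjusted p = 0.558), and NZW held 313 UMIs of the gene. In granulocyte-monocyte-precursor-like cells NZB held 51 UMIs, NZBWF1 41, and NZW 3, a counted ratio of NZB to NZW of 13.2 (95% counting interval 4.27 to 66.1), with an edgeR adjusted p of 0.000215. The direction of this call was fixed in the same way. Since *Ifi211* shares most of its 3′ end with *Ifi205* and *Mndal*, these values are uncertain.

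*Ifi213* passed the filter in monocyte-like cells alone, at 0.964, 0, and 0 CPM in NZB, 5.55, 12.4, and 8.11 in NZBWF1, and 16.1, 21.3, and 19.9 in NZW. NZB held 1 UMI against 105 in NZW, a counted ratio of NZW to NZB of 87.1 (95% counting interval 15.3 to 3472), with an edgeR adjusted p of 8.66e-09. The gene passed the filter only through the other strains, which fixed the direction of this call. In plasmacytoid-dendritic-cell-like cells, where it was too low to test, NZB held 12 UMIs, NZBWF1 5, and NZW 1. In mature-B-cell-like cells the counts were 0, 5, and 14 in the same order.

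*Ifi209* was lower in NZB than in NZW in 3 of 7 classes. Monocyte-like cells stood at 65.5, 87.1, and 85.6 CPM in NZB, 108, 118, and 126 in NZBWF1, and 165, 146, and 159 in NZW, without overlap (log2 fold change -0.95 ± 0.12, edgeR adjusted p = 4.92e-07). Mature-B-cell-like cells stood at 64.8, 45.8, and 55.3 CPM in NZB and 156, 125, and 163 in NZW (log2 fold change -1.31 ± 0.30, edgeR adjusted p = 0.0056), a call lost with the limit of 2000 UMIs (adjusted p = 0.603) and without NZB mouse 3 (adjusted p = 0.0713) at log2 fold changes between -1.30 and -0.92. NK-cell-like cells stood at 37.4, 16.5, and 0 and 142, 95.8, and 185 CPM (log2 fold change -3.03 ± 0.82, edgeR adjusted p = 0.0229), from 5 and 39 UMIs, and this call was lost without NZB mouse 3 (adjusted p = 0.176), NZW mouse 1 (adjusted p = 0.126), and NZW mouse 3 (adjusted p = 0.308) at log2 fold changes between -3.0 and -2.23. The adjusted p of these 2 calls ran from 0.00109 to 0.603 and 7.68e-05 to 0.308 over all alternatives. In B-cell-precursor-like cells, at a like level of 136 ± 15.1 CPM in NZB and 127 ± 21 in NZW, no difference passed (log2 fold change 0.12 ± 0.25, edgeR adjusted p = 0.919), and the same held in plasmacytoid-dendritic-cell-like cells (log2 fold change 0.19 ± 0.26, edgeR adjusted p = 0.766).

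*Aim2* was the one member with no call in any class or comparison. In its 24 tests edgeR called 0, DESeq2 called 0, and 5 had an unadjusted p under 0.05 by edgeR. In monocyte-like cells it was 35.7, 36.1, and 41.1 CPM in NZB, 62.4, 40.7, and 48.7 in NZBWF1, and 40.1, 49.7, and 45.8 in NZW (log2 fold change -0.27 ± 0.16, edgeR adjusted p = 0.248 for NZB against NZW). The largest difference between the parents was in B-cell-precursor-like cells, at 49.2, 45.8, and 37.5 CPM in NZB and 25.3, 22.1, and 22.4 in NZW. These did not overlap, and the difference missed the threshold (log2 fold change 0.89 ± 0.26, edgeR adjusted p = 0.0561). In plasmacytoid-dendritic-cell-like cells the levels were 58.8, 51.6, and 62.5 and 28.1, 31.7, and 42.8 CPM (log2 fold change 0.79 ± 0.30, edgeR adjusted p = 0.0994).

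**Figure D3:**
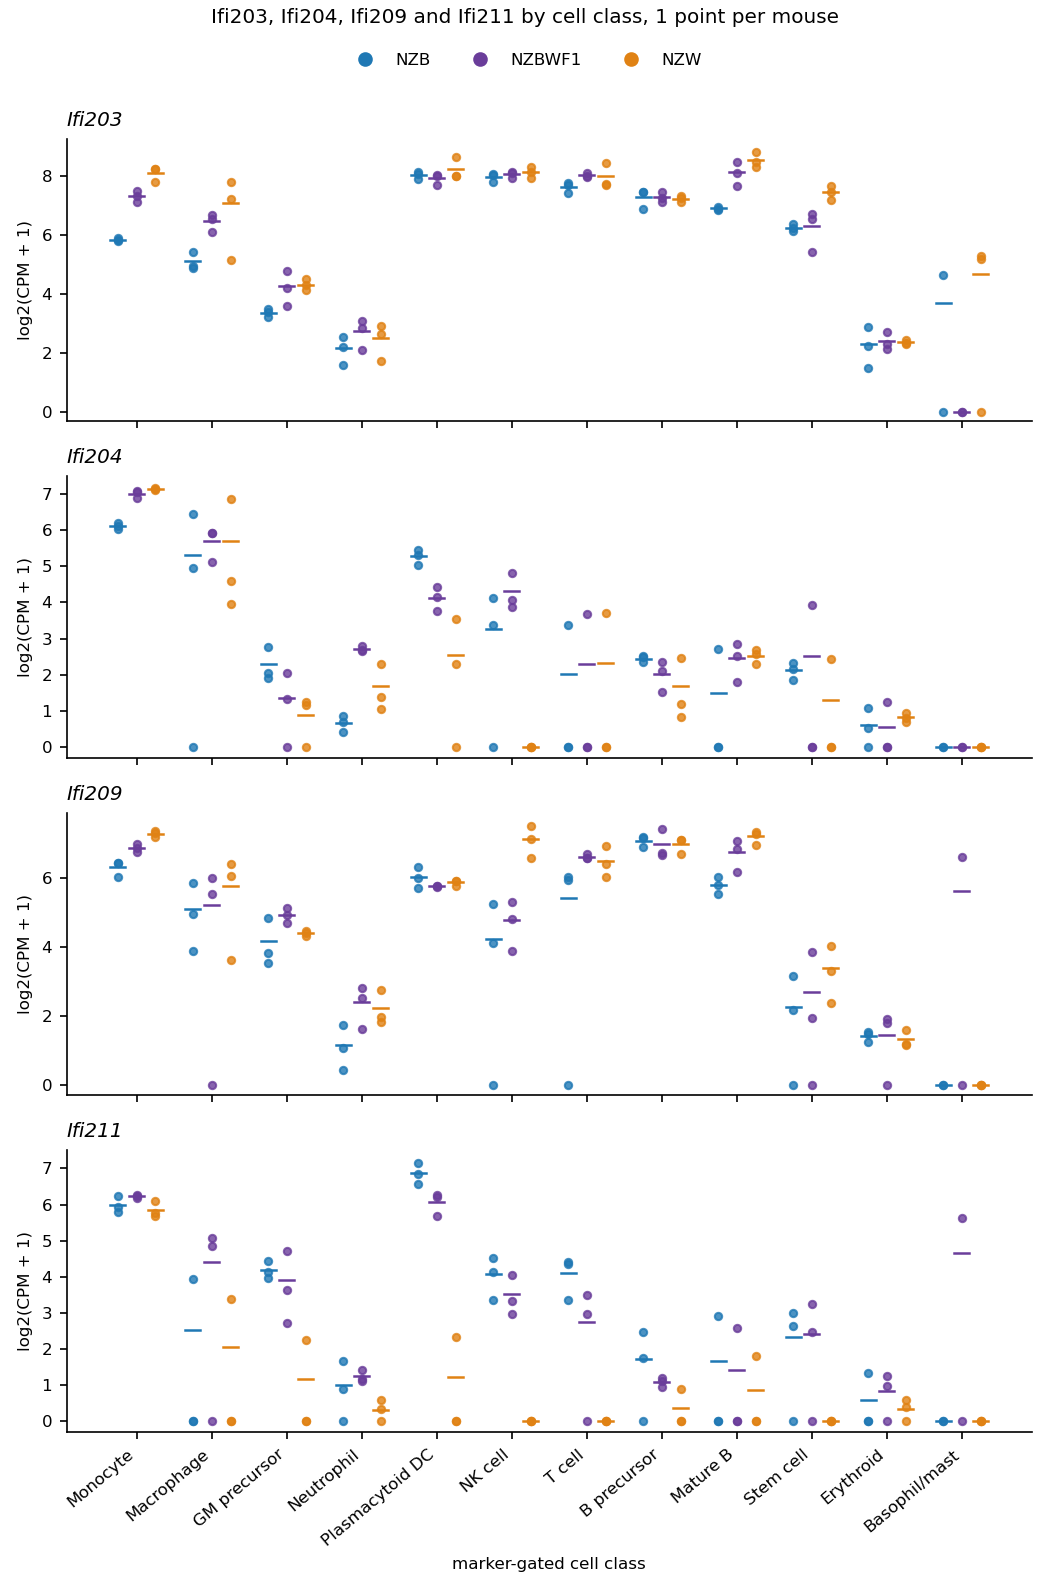
Level of *Ifi203*, *Ifi204*, *Ifi209*, and *Ifi211* (1 panel each) as log2(CPM + 1) on the y axis in 12 marker-gated cell classes on the x axis, with 1 point per mouse and a bar at the strain mean of CPM. The strains of *Ifi203* separate in monocyte-like cells and overlap in B-cell-precursor-like cells, and *Ifi211* is near 0 in NZW in plasmacytoid-dendritic-cell-like but not in monocyte-like cells.

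Whether the difference between the parents itself varied between classes was tested in 1 model over 11 classes and 99 sums, with the mouse as a term. For 7 of the 8 members that could be tested it did, against 14.3% of 9835 genes. The edgeR adjusted p was 1.04e-17 for *Ifi203*, 3.87e-13 for *Ifi211*, 8.09e-07 for *Ifi204*, and 1.76e-06 for *Mndal*, whose difference had the same sign in all 10 classes tested before free RNA was subtracted (turned in neutrophil-like cells after it) and varied in size. It was 4.8e-05 for *Ifi209*, 0.000228 for *Ifi207*, 0.00389 for *Ifi213*, and 0.0617 for *Aim2*. Of the 11 classes behind the value of *Ifi213*, monocyte-like cells alone had enough UMIs of it for a test within the class. *Ifi207* had enough in 2 classes, and *Ifi204* and *Ifi211* in 3 each. No value could be given for *Ifi202b*, since NZW was at 0 in every class. The count fell to 2 of 7 tested when cells needed 2000 UMIs and 1000 genes, and to 3 of 5 tested when they could hold at most 5% mitochondrial UMIs. Both of those include *Ifi203*. The shares of all genes under these limits are not given here.

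The second question was where the hybrid stands. Its comparisons with each parent share the NZBWF1 mice and are given side by side. Against NZB, 19 of 47 pairs were called, 13 higher and 6 lower in NZBWF1, with 3.44% of all tests called (1.74% and 1.70%). Against NZW, 12 of 47 were called, 7 higher and 5 lower, with 1.11% of all tests (0.588% and 0.518%). The mean of the NZBWF1 mice lay between the parents' means in 34 of the 47 pairs, above both in 9, and below both in 4. The NZB and NZW mice did not overlap in 33 of the 47. Neither these places nor the percentages that follow were taken over all genes, so nothing particular to the cluster is read from them. The median level in NZBWF1 was 99.5% of the mean of the parents' levels. For *Ifi202b* this figure was 97% in monocyte-like, 108% in NK-cell-like, 77.6% in plasmacytoid-dendritic-cell-like, 66.6% in granulocyte-monocyte-precursor-like, 11.8% in B-cell-precursor-like, and 263% in neutrophil-like cells. For *Mndal* it was 93.9% in monocyte-like and 100.1% in mature-B-cell-like cells, and for *Ifi211* 112% in plasmacytoid-dendritic-cell-like cells. *Ifi204* in neutrophil-like cells stood at 392%, and over the 47 pairs the figure ran from 11.8% to 392%. The lowest, that of *Ifi202b* in B-cell-precursor-like cells, rests on 7 UMIs in NZBWF1 and on an NZB mean raised by NZB mouse 1, whose 6 UMIs came from 1 cell. Subtraction of free RNA took the NZBWF1 mean there from 0.803 to 0.106 CPM and the NZB mean from 13.6 to 13.1.

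The contrast used in the study compares the hybrid with the average of its parents' log values, which lies below the mean of the levels wherever the parents differ. By it, 9 of 47 pairs were called, all higher in NZBWF1, with 0.482% of all tests called and 0.377% called higher. They were *Ifi202b* in monocyte-like, granulocyte-monocyte-precursor-like, NK-cell-like, and neutrophil-like cells, *Mndal* in monocyte-like and mature-B-cell-like cells, *Ifi213* in monocyte-like cells, *Ifi211* in plasmacytoid-dendritic-cell-like cells, and *Ifi204* in neutrophil-like cells. Without NZBWF1 mouse 3, 4 were called, and the stricter limits left 3 (2000 UMIs) and 5 (5% mitochondrial UMIs). In 6 of the 9 a parent was at 3 UMIs or fewer, and the fitted size there depends on the prior count and is no bound. For *Mndal* the log2 fold change was 0.99 ± 0.13 in monocyte-like cells (edgeR adjusted p = 1.42e-05) and 1.45 ± 0.28 in mature-B-cell-like cells (edgeR adjusted p = 0.00324), and for *Ifi204* in neutrophil-like cells it was 2.10 ± 0.37 (edgeR adjusted p = 0.00941). The call of *Mndal* in mature-B-cell-like cells was lost with the limit of 2000 UMIs (adjusted p = 0.764), with the limit of 5% mitochondrial UMIs (adjusted p = 0.802), without NZB mouse 3 (adjusted p = 0.069), and NZBWF1 mouse 3 (adjusted p = 0.0918) at log2 fold changes between 0.75 and 1.42, and that of *Ifi204* with clusters in place of gates (adjusted p = 0.25), without NZBWF1 mouse 2 (adjusted p = 0.0784), and NZBWF1 mouse 3 (adjusted p = 0.0617) at log2 fold changes between 1.56 and 2.14, with adjusted p ranges over all alternatives of 0.000127 to 0.991 and 1.41e-05 to 0.25. That of *Ifi213* (1.97 ± 0.49) was lost with DESeq2 (adjusted p = 0.171), with clusters in place of gates (adjusted p = 0.0552), without NZB mouse 2 (adjusted p = 0.204), NZB mouse 3 (adjusted p = 0.0782), NZW mouse 1 (adjusted p = 0.0505), NZBWF1 mouse 2 (adjusted p = 0.346), and NZBWF1 mouse 3 (adjusted p = 0.0568) at log2 fold changes between 1.53 and 2.08, with an adjusted p range of 0.0065 to 0.346. Among those of *Ifi202b*, the call in NK-cell-like cells (2.88 ± 0.63) was lost with DESeq2 (adjusted p = 0.23), without NZW mouse 1 (adjusted p = 0.0734), NZW mouse 2 (adjusted p = 0.0728), NZW mouse 3 (adjusted p = 0.0819), and NZBWF1 mouse 3 (adjusted p = 0.0781) at log2 fold changes between 2.45 and 2.89. That in neutrophil-like cells (3.56 ± 0.58) was lost with free RNA subtracted (adjusted p = 0.0976), with doublets removed (adjusted p = 0.163), and without NZBWF1 mouse 3 (adjusted p = 0.0741) at log2 fold changes between 2.85 and 3.44. That in granulocyte-monocyte-precursor-like cells (3.22 ± 0.58) was lost with the limit of 5% mitochondrial UMIs (adjusted p = 0.85) at a log2 fold change of 2.59. Their adjusted p ranges were 0.0005 to 0.23, 3.71e-06 to 0.163, and 5.58e-08 to 0.85. The call of *Ifi211* (2.28 ± 0.43) was lost with the limit of 2000 UMIs (adjusted p = 0.452) and with the limit of 5% mitochondrial UMIs (adjusted p = 0.971) at log2 fold changes between 1.28 and 1.78, with an adjusted p range of 3.84e-05 to 0.971. The last 5 ranges are over all alternatives but the reference described next. For a reference chosen after seeing the data that stands for the mean of the levels, NZB and NZW mice of the same number were thinned to equal totals and added. Other matchings of the parent mice were not tried. Against this reference 0 of the 42 pairs that could be tested again were called by edgeR, 8 had an unadjusted p under 0.05, and 0.238% of all tests were called. By that reference the adjusted p was 0.847 for *Mndal* in monocyte-like cells and 0.239 for *Ifi204* in neutrophil-like cells.

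**Figure D4:**
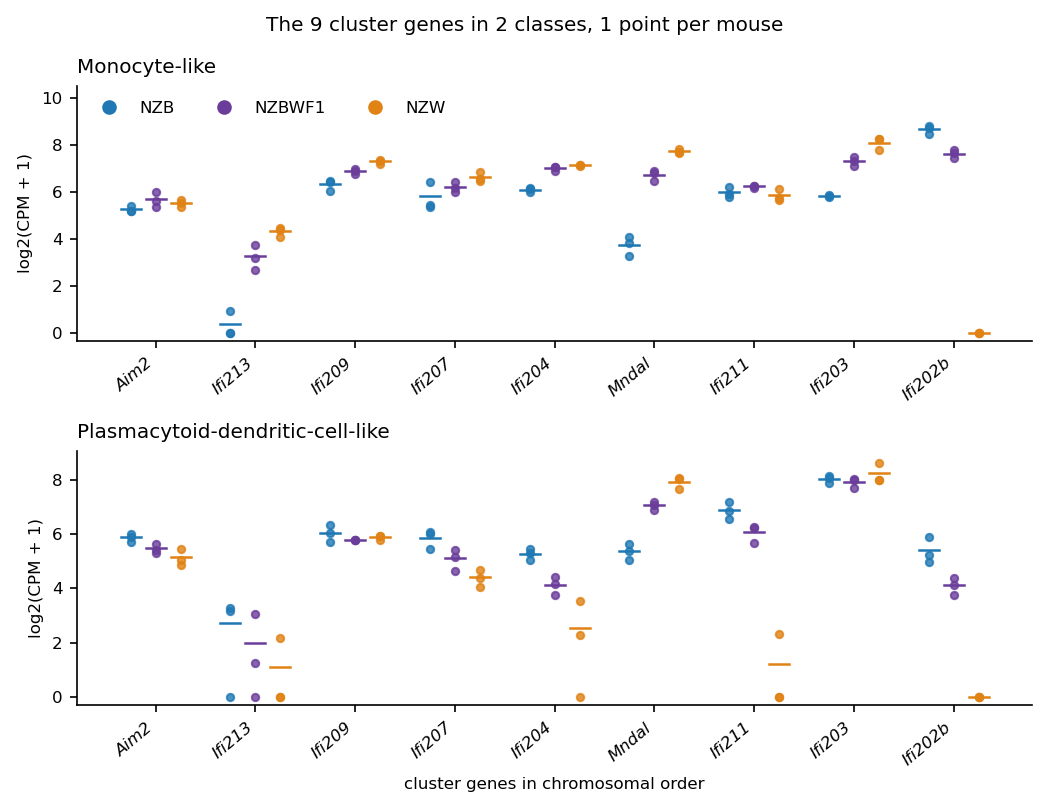
Levels of the 9 members in chromosomal order (x axis) as log2(CPM + 1) (y axis) in monocyte-like cells (upper panel) and plasmacytoid-dendritic-cell-like cells (lower panel), with 1 point per mouse and a bar at the strain mean of CPM. *Ifi202b* and *Mndal* keep the order of the strains in both classes, whereas *Ifi204* has NZW highest in the upper panel and NZB highest in the lower.

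Interferon-stimulated genes outside the cluster, a list of 52 of which 51 were counted, were examined beside the members. In monocyte-like cells 46 were tested, and 23 were lower and 0 higher in NZB than in NZW, with a median log2 fold change of -0.52 (all genes, -0.01) and 22.0% of all genes called. *Slfn5* (-1.73), *Rsad2* (-2.83), and *Oasl2* (-1.88), each given as a log2 fold change and all known from the antiviral response, had the smallest p. In plasmacytoid-dendritic-cell-like cells 9 of 31 were higher in NZB, among them *Ifi44* (1.57) and *Herc6* (1.42), and 1 was lower, and in neutrophil-like cells 8 of 40 were higher and 2 lower, with 7.84% and 11.1% of all genes called. In monocyte-like cells 26 of the 46 were higher and 1 lower in NZBWF1 than in NZB, with 14.4% of all genes called. Of NZBWF1 against NZW, edgeR called 0 of the 46 there (all genes, 1.06%), and 7 had an unadjusted p under 0.05. The DESeq2 results for this list are not given here. The summed level of the list in monocyte-like cells was 2763 to 2790.0 CPM in NZB, 3471 to 4347 in NZBWF1, and 3263 to 3818 in NZW, and its part in the members' differences was not tested. One cluster was picked as that with the highest mean log2 ratio of this same list (2.75, the next 1.03). That it went with the list results is therefore no separate support. The cluster held 434 cells of all classes, 324 of them monocyte-like. Its leading genes were *Cxcl10* and *Ifit3*, and class II histocompatibility genes (*H2-Eb1*, *H2-Aa*, and *H2-Ab1*) were also among the first. Of the monocyte-like cells it held 1.74, 0.386, and 0.756% in NZB mice, 4.47, 7.19, and 9.01% in NZBWF1 mice, and 4.83, 9.57, and 7.54% in NZW mice. Without it, a setting chosen after seeing the data, the log2 fold change of NZB against NZW was -3.84 for *Mndal*, -2.14 for *Ifi203*, -0.75 for *Ifi204*, and -0.81 for *Ifi209*, and these 4 calls of NZB against NZW and those of *Ifi202b* and *Ifi213* were kept. For the hybrid 2 calls were lost without it. That of *Ifi209* for NZBWF1 against NZB went from 0.52 ± 0.12 on the log2 scale (edgeR adjusted p = 0.00443) to 0.34 (edgeR adjusted p = 0.0882, with an adjusted p range over all alternatives of 0.001 to 0.0882), and so became smaller. That of *Ifi213* for the hybrid against its parents' mean went from 1.97 ± 0.49 on the log2 scale (edgeR adjusted p = 0.0307) to 2.37 ± 0.75 (edgeR adjusted p = 0.136), with no smaller value and a larger SE.

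Genes of DNA sensing and the inflammasome, a list of 30 of which 28 were counted, were read in the same tests. In monocyte-like cells 23 were tested, and 6 were higher and 2 lower in NZB than in NZW, where 22.0% of all genes were called. *Nlrp3*, a sensor of another inflammasome, was lower (-1.86), whereas *Pycard*, the adaptor that AIM2 recruits (0.66), and *Nlrc4*, a sensor of bacterial proteins (2.93), were higher. These are log2 fold changes of NZB over NZW. In plasmacytoid-dendritic-cell-like cells *Casp1* (1.42) and *Tlr7*, a sensor of RNA (0.86), were higher in NZB. In erythroid-like cells *Mb21d1*, which encodes the DNA sensor cGAS (2.01), and *Irf3*, a transcription factor downstream of STING (0.58), were higher in NZB, and *Rnaseh2b*, which encodes a subunit of a ribonuclease that acts on RNA paired with DNA, was lower (-0.40). Over all classes 16 of 135 tests of the list were called, 12 higher and 4 lower in NZB, against 8.59% of all tests.

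Of the other genes of the cluster, 4 were counted. *Ifi214* stood at 119, 68.8, and 68 CPM in NZB, 32.2, 28.8, and 40.7 in NZBWF1, and 15.8, 9.35, and 11 in NZW in B-cell-precursor-like cells, without overlap (log2 fold change 2.72 ± 0.27, edgeR adjusted p = 1.3e-09). Its close relative *Ifi209* showed no difference there, and the 2 share much of their 3′ ends. *Ifi206* held 0 UMIs in NZB, 33 in NZBWF1, and 64 in NZW in monocyte-like cells, so that NZW was at least 17.7-fold higher than NZB (edgeR adjusted p = 1.03e-06). With NZB at 0 UMIs it passed the filter only through the other strains, which fixed the direction of this call. *Ifi205* did not pass in monocyte-like cells (log2 fold change -1.17 ± 0.47, edgeR adjusted p = 0.0753), and *Ifi208* was too low to test in any class. Within 1 Mb on each side of the cluster, 39 further genes were counted, 10 could be tested, and 4 were called between the parents in at least 1 class. That is 5 of 28 tests of a neighbour and a class, against 8.59% of all tests. One of them, *Tagln2*, was called in 2 classes, at a log2 fold change of 0.47 in B-cell-precursor-like and 0.44 in monocyte-like cells, higher in NZB.

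As a description of likeness, Pearson's r of log2(CPM + 1) was taken over 122 sums of a class and a mouse among 8326 genes with a mean of at least 10 CPM. These sums share libraries and cell classes, so r follows cell identity as well as strain. *Ifi203* was most like *H2-Q4* (0.86), a class I histocompatibility gene, followed by *Mndal* (0.84) and *H2-K1* (0.83). *Ifi211* was most like *Ifi202b* (0.61), followed by *Rnd3* (0.57) and *Ifi204* (0.55), and *Ifi204* was most like *Pid1* (0.74), *Psap* (0.73), and *Ifi207* (0.73). *Ifi202b* reached at most 0.64, with *Gm42031* and *BC147527*, followed by *Ftl1* (0.62), the ferritin light chain. With a pseudocount of 10 in place of 1 the genes nearest to *Ifi202b* were *Olfm1* (0.62), *Ly6c1* (0.61), and *Ifi211* (0.61), and those nearest to *Ifi203* were *Mndal* (0.86), *Lpp* (0.85), and *Lbh* (0.84). The gene nearest to *Ifi211* was then *Ifi204* (0.68), with *Ifi202b* not among the nearest 3, and that nearest to *Ifi204* was *Ifi207* (0.85), so these rankings depend on the pseudocount. With the pseudocount of 1, *Aim2* was most like *Psme1* and *Cd48* (both 0.74), *Ifi207* like *P2ry6* (0.84), and *Ifi209* like *Arl5c* (0.75).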

How the data were processed

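Single cell RNA sequencing libraries (10x Genomics 3′ v3.1 chemistry) were made from femur bone marrow of 9 mice, 3 per strain. The authors aligned reads to the mm10 assembly and deposited a matrix of raw UMI counts per gene and barcode made with Cell Ranger 3.1.0, without normalization, whose 68444 barcodes were already called as cells. The number at the end of a barcode was taken as the line of its library in the deposited library list, which the sources used here do not state. All value columns were mapped to a mouse.

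From these counts, cells with at least 1000 UMIs, 500 genes, and at most 10% mitochondrial UMIs were kept. A class was open to a cell if its fixed markers gave at least 3 UMIs from at least 2 genes. These UMIs also had to exceed the 0.999 Poisson quantile of 5% free RNA. The markers' share of the cell's UMIs was divided by a reference median for the class, and the highest ratio gave the class. Precursor and mature B-cell markers were gated as 1 set, then split by which gave more UMIs, with 142 tied cells left out. Cells whose second class reached over 0.5 of the ratio of the first were set aside as mixed (4424 cells), which also removes many doublets. An alternative removed 1458 cells by doublet score. These gates were set after the data were seen. Free RNA was estimated from barcodes under 100 UMIs and from globin and neutrophil transcripts in B-cell-precursor-like cells. This gave 1 share per mouse, which was used for every class. Clustering gave 43 clusters, which placed 89.8% of the cells named by both in the same class.

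UMIs were summed per class and mouse with at least 10 cells. Strains were compared with edgeR 4.0.16 in R 4.3.3 (filterByExpr, TMM, quasi-likelihood test), all strains in 1 fit per class, with Benjamini-Hochberg adjustment over all genes of the class. The study's contrast gave the hybrid a weight of 1 and each parent a weight of -0.5. Fits were tested on simulated data first. DESeq2 1.42.0, other filters, size factors, and the replicate number as a block were alternatives. Python 3.11.15, scanpy 1.11.5, and scipy 1.17.1 were used. Intervals and floors cover counting error only. A strain at 0 UMIs was given a floor of 3 UMIs over its mice. The members, the lists, and the rule for named genes (members, other genes of the cluster, neighbours called in at least 2 classes, the 3 genes of smallest p of each list, and the 3 genes of most like pattern) were chosen with earlier results of these data known. One gene that this rule names and 1 motif that was searched are not reported here. In the main fits the replicate numbers were not used to pair the mice, since the correlation of same-numbered deviations was not above 0.1 in every pair. They served as a block in 1 alternative, and they matched the NZB and NZW mice that were added as the sum of the parents. The correlation ran from -0.161 to 0.344 over all classes and numbers. In neutrophil-like cells it was 0.229 to 0.255 for number 1, 0.261 to 0.314 for number 2, and -0.0522 to 0.0449 for number 3. Whether same-numbered mice share a batch was not tested. Promoters came from RefSeq (GRCm38.p6).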

Additional observations from a re-analysis of the deposited data

Results flagged for a closer look

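For 7 of the 8 members tested, the difference between NZB and NZW itself differed between cell classes, by a test of the class-by-strain terms with the mouse in the model (edgeR adjusted p over 9835 genes). The adjusted p was 1.04e-17 for *Ifi203*, 3.87e-13 for *Ifi211*, 8.09e-07 for *Ifi204*, and 1.76e-06 for *Mndal*. It was 4.8e-05 for *Ifi209*, 0.000228 for *Ifi207*, and 0.00389 for *Ifi213*, which had enough UMIs for a test within a class in monocyte-like cells alone. *Ifi207* had enough in 2 classes, and *Ifi204* and *Ifi211* in 3 each. Of all genes tested, 14.3% passed the same test, so a difference between classes was common in these data. The part that the number of cells, depth, or reads shared with neighbouring genes had in these results was not tested.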

How the results depend on the processing

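The counts of called members (29 between the parents, 19 for the hybrid against NZB, 12 for the hybrid against NZW, and 9 for the hybrid against the mean of both) moved most with stricter limits on cells or counts, under which fewer pairs could be tested. The shares of all genes called under these settings are not given here, so the counts do not compare the members with other genes. With 2000 UMIs and 1000 genes per cell they were 16, 10, 7, and 3, over 31 pairs. With at most 5% mitochondrial UMIs they were 15, 9, 4, and 5, over 30 pairs. With at least 10 counts in every mouse they were 5, 5, 2, and 0, over 15 pairs, since this filter removes any member that a strain lacks. With DESeq2 they were 27, 14, 10, and 6. When each mouse was left out in turn they ranged from 25 to 30, from 14 to 20, from 12 to 14, and from 4 to 10, and the 4 was without NZBWF1 mouse 3. The count of members whose parental difference varied between classes fell from 7 to 2 with 2000 UMIs, of 7 tested, and to 3 with 5% mitochondrial UMIs, of 5 tested, and ranged from 6 to 8 with 1 mouse left out.

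Against the sum of the parents in place of the mean of their logs, a reference added after seeing the data, the count for the mean of the parents was 0, and 4 log2 fold changes reversed. They were -0.3819 for *Ifi202b* in granulocyte-monocyte-precursor-like cells, and in monocyte-like cells -0.03841 for *Ifi202b*, -0.07723 for *Mndal*, and -0.01524 for *Ifi213*. The replicate number as a block, which the main fits left out, gave 32, 21, 14, and 10, and every single call was kept under it. Of 1288 refits of 69 single calls, 1183 kept the call and 101 lost it with the same sign, and 34 calls were kept in every refit. DESeq2 gave no adjusted p for 5 of them. Depth limited the classes with few cells, in which most members were too low to be tested.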
